A study of Mus musculus with 16 samples.

Results

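Chemokines and their receptors were examined in bulk RNA sequencing of mouse spinal cord. The gene set was defined by symbol, as genes whose symbols start with Ccl, Ccr, Cxcl, Cxcr, Xcl or Xcr followed by a digit, with the addition of Cx3cl1. This gave 57 of the 24411 genes in the files, made up of 24 CC ligands, 13 CXC ligands, 2 XC or CX3C ligands, 11 CC receptors and 7 CXC or XC receptors. A mean level above 1 TPM (a transcript level corrected for gene length and library depth) was reached by 32 of them under SCI + Atorvastatin, by 30 under SCI + Vehicle and by 11 under Uninjured Control.

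All 16 mice were female C57BL/6J. The SCI + Atorvastatin group (n = 7) had a lateral compression of the cord at a 0.25 mm gap at 12 wk of age and, from 2 wk post-injury, daily atorvastatin at 10 mg/kg for 4 wk in a vehicle of DMSO, PEG, Tween and saline. The SCI + Vehicle group (n = 7) had the same injury and the vehicle alone, so both injured groups carried SCI and the vehicle. The Uninjured Control group (n = 2) was labelled as uninjured and without treatment, and the sources used here name no injections for it. Cord was taken at 6 wk post-injury according to the labels, as a segment of 5 mm, and the sources differ slightly on the day of isolation. The labels give 12 wk as the age to which all mice were raised and no later age for the uninjured mice. By the study's methods the uninjured mice were several weeks younger at isolation than the SCI mice. Age, the vehicle injections and injury thus cannot be told apart in comparisons with them. Atorvastatin inhibits HMG-CoA reductase, the rate-limiting enzyme of cholesterol synthesis.

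Libraries held 14823292 to 25579826 counts on genes, with SCI + Vehicle replicate 4 the shallowest. The Uninjured Control libraries stood apart: they had counts in 12732 and 12356 genes, against 16399 to 19338 in the SCI mice, although their totals of 20211276 and 22368736 were within the same range. They also carried liver transcripts, whose 8 markers summed to 1170 and 6308 TPM against at most 11.88 TPM in any SCI mouse. The markers of neuron, astrocyte and oligodendrocyte were present in all 3 groups, as the labelled tissue requires. Where a gene had no counts, up to 3 counts may have been missed, which is 0.117 to 0.202 CPM (counts scaled to a common library size). This limit covers counting error only.

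Chemokines are small secreted proteins that guide leukocytes along a gradient, and they are named by the spacing of their first cysteines (CC, CXC, XC and CX3C). Their receptors are membrane proteins that signal through Gi proteins to the actin cytoskeleton and to integrins. Inducible ligands are made at sites of inflammation, whereas constitutive or homeostatic ligands position cells in healthy tissue. In injured cord, microglia, astrocytes, endothelium and infiltrating macrophages are known sources of inducible chemokines, and neurons are the known source of Cx3cl1, whose receptor Cx3cr1 marks microglia.

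The regulatory sequence just upstream of the annotated start is shown for 4 ligands that carry the comparisons: 2 inducible CXC ligands with kappaB matches (Cxcl10 and Cxcl1), the CC ligand whose counts separated injured from uninjured cord most widely (Ccl6), and a constitutive ligand that was called as upregulated (Cxcl12). Sequences are those of RefSeq for GRCm38.p6 and cover the 250 bases before the start, 5′ to 3′ on the gene's own strand. Capitals mark matches to the NF-kappaB consensus (kappaB), the interferon-stimulated response element core (GAAA, any 2 bases, GAAA) or the AP-1 site TGANTCA, searched on both strands. The Cxcl10 window is chr5:92348890-92349139 on the minus strand, Cxcl1 chr5:90890995-90891244 on the plus strand, Ccl6 chr11:83593088-83593337 on the minus strand and Cxcl12 chr6:117168285-117168534 on the plus strand.
Cxcl10: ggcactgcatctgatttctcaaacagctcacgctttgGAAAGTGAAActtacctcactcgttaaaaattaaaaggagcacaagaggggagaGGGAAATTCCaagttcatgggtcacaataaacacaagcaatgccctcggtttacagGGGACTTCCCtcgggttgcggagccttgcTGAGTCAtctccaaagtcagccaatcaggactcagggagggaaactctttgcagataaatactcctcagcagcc
Cxcl1: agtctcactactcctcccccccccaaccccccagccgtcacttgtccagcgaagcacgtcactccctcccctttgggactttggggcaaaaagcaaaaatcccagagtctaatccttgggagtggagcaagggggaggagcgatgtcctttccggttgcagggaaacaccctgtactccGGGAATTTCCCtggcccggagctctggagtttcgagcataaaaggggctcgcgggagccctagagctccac
Ccl6: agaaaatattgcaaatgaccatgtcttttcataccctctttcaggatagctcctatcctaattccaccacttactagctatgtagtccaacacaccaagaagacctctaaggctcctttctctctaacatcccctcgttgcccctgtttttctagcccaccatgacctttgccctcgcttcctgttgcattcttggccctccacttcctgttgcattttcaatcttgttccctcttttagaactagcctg
Cxcl12: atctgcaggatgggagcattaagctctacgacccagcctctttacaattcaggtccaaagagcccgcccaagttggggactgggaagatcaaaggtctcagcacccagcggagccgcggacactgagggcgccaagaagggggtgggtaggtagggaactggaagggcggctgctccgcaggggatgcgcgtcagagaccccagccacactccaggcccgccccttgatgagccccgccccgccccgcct

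In the Cxcl10 window the capitals are, from the left, 1 interferon response core, 2 kappaB matches and 1 AP-1 match. The Cxcl1 window holds 1 run of capitals in which kappaB matched on both strands in overlap, and the Ccl6 and Cxcl12 windows hold no match to these letters or to the PU.1 box (GAGGAA followed by GT). RefSeq windows were found for 41 of the 57 genes (48 windows). The kappaB consensus was in 16.7% of those windows, namely those of Ccl9, Ccl20, Ccr3, Ccr6, Cxcl1, Cxcl2, Cxcl3 and Cxcl10, against 3.90% of all 32851 windows. The interferon response core was in 6.25% (Ccl19, Cxcl10 and Cxcl14) against 2.98%, AP-1 in 12.5% against 6.75%, and the PU.1 box in 2.08% (Cxcr3) against 2.44%. A match describes the letters only.

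The genes lie in clusters. On GRCm38 with GENCODE vM21, 56 of the 57 were found. Chromosome 11 held 11 CC ligands, chromosome 5 held 9 CXC ligands, and chromosome 9 held 10 receptors. Ccl6 lies at chr11:83587882-83593087 and Ccl3 at chr11:83647844-83649355, both on the minus strand. Ccr2 lies at chr9:124101950-124113557 on the plus strand. Some genes share sequence: 83.3% of the 31-base stretches of Ccl21b were found in Ccl21a and 36.9% of those of Ccl21a in Ccl21b, and 76.5% of those of Ccl27b were found in Ccl27a. Ccl21c was not found in the annotation and was not compared. Ccl21a, Ccl21b, Ccl21c and Ccl27b have TPM but no count in any mouse, so their levels are uncertain and they could not be tested on counts.

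A small number of ligands made up most of the chemokine transcripts. Cx3cl1, Cxcl14, Ccl27a, Cxcl12, Cxcl16, Ccl6 and Ccl3, which are 7 of the 57 genes, held 68.2% to 81.0% of the summed TPM of the set in the SCI mice, and 69.8% and 85.9% in the Uninjured Control mice. The summed level itself was 469.4 to 641.6 TPM in SCI mice and 318.4 and 220.5 TPM in the uninjured mice, so no SCI mouse overlapped with them.

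**Figure D1:**
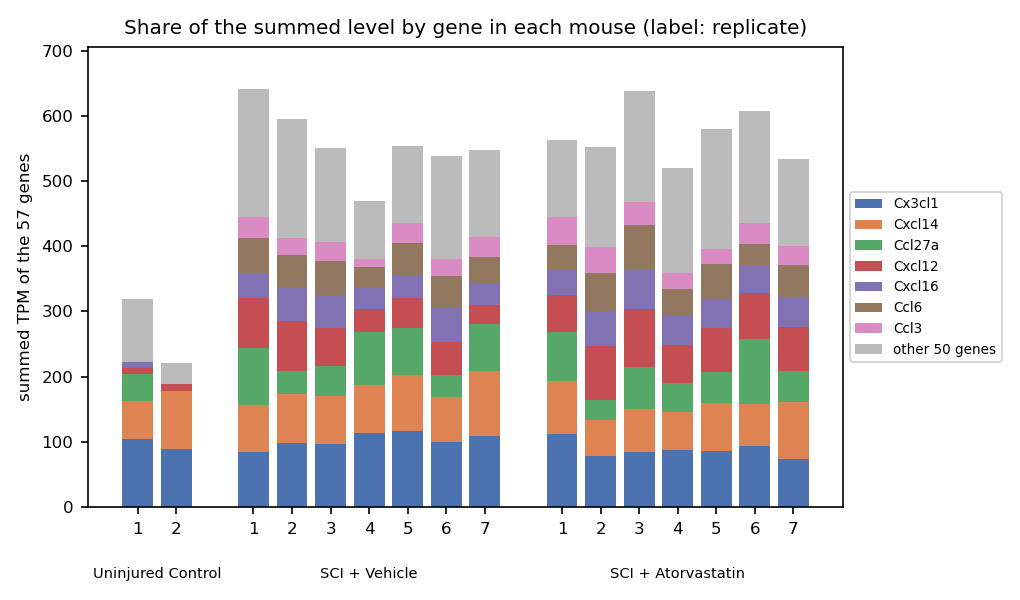
Summed TPM of the 57 chemokine and receptor genes in each of the 16 mice, with the 7 most abundant genes stacked separately and the 50 others together. The sums are 318.4 and 220.5 TPM in the Uninjured Control mice and 469.4 to 641.6 TPM in the SCI mice, and the layers of Ccl6 and Ccl3 are absent from both uninjured mice.

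In SCI + Vehicle cord the highest mean level was that of Cx3cl1, the membrane-bound ligand of Cx3cr1, at 102.5 ± 10.9 TPM (SD, n = 7). It was followed by Cxcl14, a constitutive epithelial and neural ligand (78.5 ± 10.6 TPM), and by Ccl27a, a skin ligand of Ccr10 (61.0 ± 22.1 TPM), and the ranges of neighbours in this order overlapped. Cxcl12, the ligand of Cxcr4, was at 53.4 ± 18.5 TPM and Ccl6, a macrophage ligand of Ccr1, at 46.1 ± 7.40 TPM. The SCI + Atorvastatin group had the same 7 genes at its head, with Cx3cl1 at 87.7 ± 12.3 TPM, Cxcl12 at 69.7 ± 11.9 TPM and Cxcl14 at 69.5 ± 11.7 TPM.

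The Uninjured Control mice had Cx3cl1 at 104.8 and 88.9 TPM, Cxcl14 at 57.49 and 88.97 TPM and Cxcl12 at 8.27 and 11.53 TPM. For several other genes the pair disagreed. Ccl25, a gut and thymus ligand of Ccr9, was at 77.35 and 0 TPM, Ccl27a at 42.4 and 0 TPM and Cxcr4 at 0 and 24.05 TPM. In the remaining 46 of the 57 genes TPM was 0 in both uninjured mice. An exact 0 in TPM is not always a lack of counts here: Ccl27a had 397 counts in the uninjured mouse where it is listed at 0 TPM.

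Of the genes above 1 TPM, 28 were so in both SCI groups and 11 in all 3 groups. The CC ligands gave 18, 18 and 5 genes above 1 TPM in SCI + Atorvastatin, SCI + Vehicle and Uninjured Control, the CXC ligands 6, 5 and 3, and the CC receptors 5, 4 and 1. Among ligands of constitutive use, 11, 10 and 6 of 17 were above the limit, and among inducible ligands 14, 14 and 3 of 22. Close to the limit in SCI + Vehicle were Ccl1 (1.08 TPM, from a single mouse) and Ccr1 (1.21 TPM) above it, and Cxcl17 (0.967 TPM) and Ccr9 (0.697 TPM) below it. In SCI + Atorvastatin the nearest were Ccl21c (1.02 TPM) and Ccl21a (1.05 TPM) above, and Ccl27b (0.964 TPM) and Ccl22 (0.943 TPM) below, and in Uninjured Control Ccl28 (1.06 TPM) was close above it. Leaving out Uninjured Control replicate 1 left 7 genes above the limit in that group, and leaving out replicate 2 left 8.

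The 23 genes at or below 1 TPM in every group were not tested. They were Ccl20, Ccl22, Ccl24, Ccl26, Ccr1l1, Ccr3, Ccr4, Ccr6, Ccr7, Ccr8, Cxcl2, Cxcl3, Cxcl5, Cxcl11, Cxcl13, Cxcl15, Cxcl17, Cxcr1, Cxcr2, Cxcr3, Cxcr5, Xcl1 and Xcr1. They include the receptors of neutrophils (Cxcr1 and Cxcr2) and those of T and B cells (Ccr4, Ccr7, Cxcr3 and Cxcr5). The 10 T and B lymphocyte markers summed to 0.34 to 23.13 TPM in SCI mice and had no counts in the uninjured mice. The remaining 34 genes were among the 16091 genes tested, and 30 of them had counts.

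**Figure D2:**
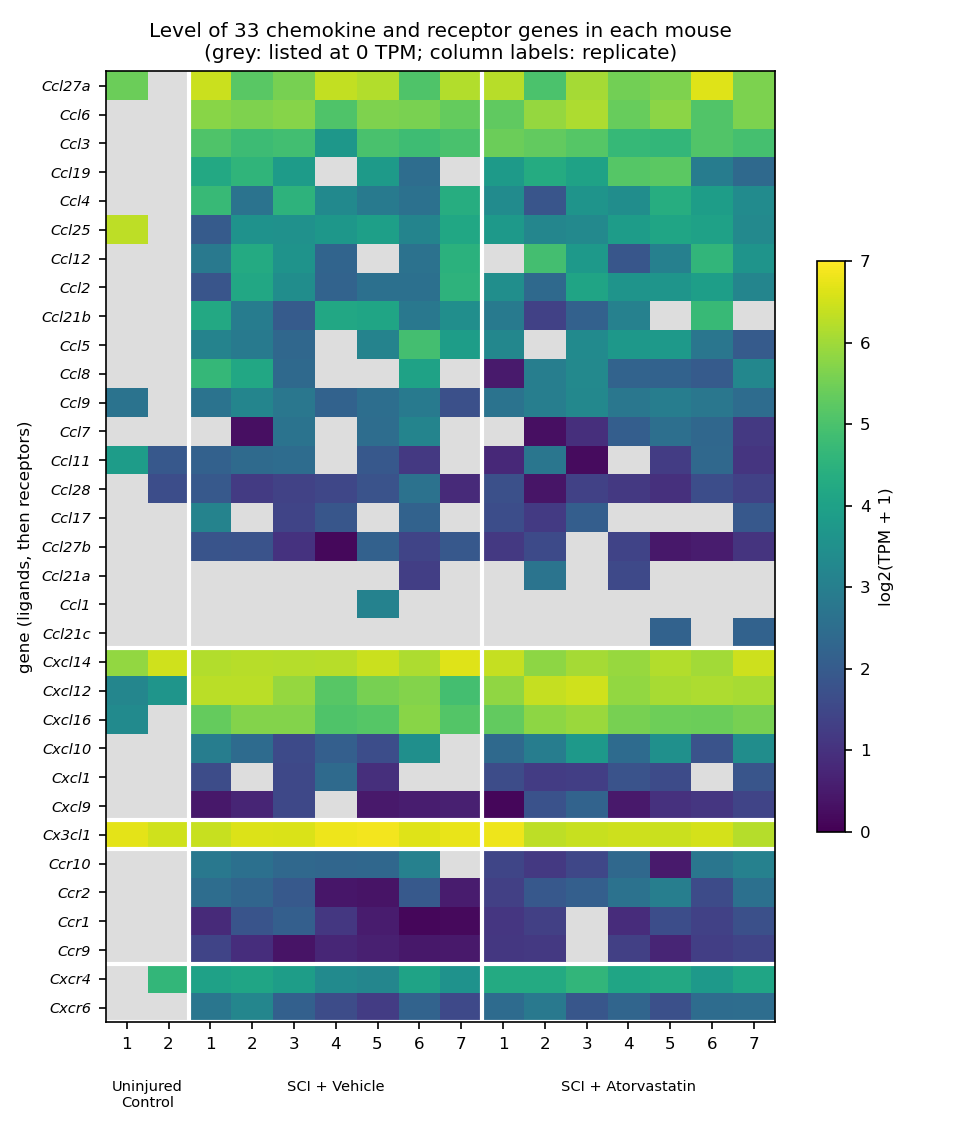
Level of 33 tested genes, as log2(TPM + 1), in each of the 16 mice, with ligands above receptors and grey for genes listed at 0 TPM. The columns of the 2 Uninjured Control mice are grey for most genes, and Cx3cl1, Cxcl14 and Cxcl12 are filled in all mice.

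The first comparison asked which genes differed between injured cord under vehicle and uninjured cord. Of the 34 tested genes, 16 were called as upregulated and 0 as downregulated in SCI + Vehicle vs. Uninjured Control, where a call needed a Benjamini-Hochberg adjusted p below 0.05 in edgeR's quasi-likelihood test and an absolute log2 fold change above 0.32. Over all genes tested, 19.9% were called as upregulated and 9.91% as downregulated. In CPM, all SCI + Vehicle mice lay above both controls for 15 of the 34 genes and below both for 1. Of all genes tested, 24.85% lay wholly above and 10.71% wholly below. Of the 30 genes with counts, the upregulated ones were 7 of 16 CC ligands, 4 of 6 CXC ligands, 4 of 5 CC receptors and 1 of 2 CXC receptors. Among ligands with counts they were 9 of 15 inducible and 2 of 8 constitutive ones. Of these constitutive ligands only Ccl17 and Ccl19 lacked counts in both controls, whereas most of the inducible ones did. Such genes could be called only as upregulated, so the split cannot be read as a difference between the kinds of ligand.

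Most of these calls set counts against no counts. Of the 16, 14 had a count of 0 in both uninjured mice, out of 23 tested genes of the set with no counts there. A fold change is then given as a lower bound against a floor of 3 counts per control library. That floor covers counting error only. Of all tested genes averaging 50 to 200 counts in SCI mice, 40.2% were at 0 in 1 control only. At 200 to 500 counts 20.9% were. A fold given as at least a value thus holds against the floor and may not bound the true change. The 23 genes without counts in either control passed the TPM filter through the SCI groups alone. Of them, the 4 without counts in any mouse could not be called, and the others could be called only as upregulated. The lack of downregulated calls therefore says nothing about the 23. Zeros were common in the control libraries: of all tested genes 15.1% had no counts in either control, and 68.5% of those were called as upregulated. Where SCI mice averaged 50 to 200 counts, as for 9 of these 14, 31.6% of all tested genes were at 0 in both controls, and where they averaged 1 to 50 counts, as for 4 of them, 63% were. Among the genes with counts in a control, 2 of 11 chemokine and receptor genes were called as upregulated, against 11.2% of all such genes. With voom and a quality weight for each group, which lets the controls have a spread of their own, no chemokine or receptor gene was called in either comparison with them (0 of 34). Of all 16091 genes tested it called 131 in SCI + Vehicle and 146 in SCI + Atorvastatin.

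In a bulk sample a change in the number of cells of a type and a change in RNA per cell cannot be told apart. The 10 microglia and macrophage markers summed to 1649 to 2426 TPM in SCI + Vehicle, 2047 to 2894 TPM in SCI + Atorvastatin and 181.5 and 263.5 TPM in Uninjured Control. Of the 10, 7 were called as upregulated in SCI + Vehicle and 8 in SCI + Atorvastatin, beside 19.9% and 24.9% of all genes tested. The part of these cells in the values was not tested. The same holds for the low number of detected genes in the control libraries.

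Ccl6 stood out among the CC ligands. It was at 15.45, 23.7 and 25.3 CPM in SCI + Vehicle (lowest, median and highest, with library sizes scaled by TMM) and at 0 in both uninjured mice. All 7 mice lay above both controls, and its level was at least 154-fold higher (edgeR adjusted p = 2.0e-05). Of tested genes that averaged at least 500 counts in SCI mice, 0.352% had no counts in either control, and Ccl6 was the sole member of the set among them.

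Ccl3 and Ccl4, the macrophage inflammatory proteins, were also without counts in uninjured cord. Ccl3 was at 3.54, 8.15 and 10.3 CPM in SCI + Vehicle, at least 52.1-fold above the floor (adjusted p = 0.000212). For Ccl4 the values were 1.34, 3.03 and 4.31 CPM, at least 20.8-fold (adjusted p = 0.00128). Ccl5, an attractant of T cells and macrophages, was lower, with a median of 1.49 CPM and a bound of 13.1-fold (adjusted p = 0.00855).

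Ccl2 and Ccl12, monocyte-attracting ligands of Ccr2, varied widely among mice. Ccl2 ranged from 1.04 to 6.43 CPM in SCI + Vehicle, with a median of 1.70 CPM, and was at least 20.7-fold higher than in uninjured cord (adjusted p = 0.0039). Ccl12, which binds the same receptor, had a median of 2.06 CPM and a bound of 19.0-fold (adjusted p = 0.00553). Ccl7 and Ccl8 had no counts in 1 and 2 of the SCI + Vehicle mice, overlapped with the controls and were not called (adjusted p = 0.0516 and 0.109). Without SCI + Vehicle replicate 4 Ccl7 was called (adjusted p = 0.0226). Ccl19, the constitutive ligand that draws Ccr7-bearing dendritic and T cells, was at 0.749, 2.71 and 6.76 CPM and at least 22.5-fold higher (adjusted p = 0.00343).

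Among CXC ligands, Cxcl12 was measured in every mouse. It was at 48.5, 63.2 and 87.0 CPM in SCI + Vehicle and at 21.9 and 25.0 CPM in the uninjured mice. The groups did not overlap, and the log2 fold change was 1.46 (SE 0.27, adjusted p = 0.0026). Cxcl16, a membrane-bound scavenger and ligand of Cxcr6, was at 18.4, 31.9 and 39.4 CPM against 1.86 and 0 CPM, a log2 fold change of 5.01 (SE 1.05, adjusted p = 0.00534). These are the 2 called genes that had counts in a control, and both were also called when either control was left out. The log2 fold change of Cxcl16 was 3.98 without Uninjured Control replicate 2, and without replicate 1 the remaining control had no counts. The exons of Cxcl16 share 552 bases with Zmynd15 on the other strand, those of Cxcl10 133 bases with Art3 and those of Ccl25 204 bases with Elavl1, and whether the counting used strand is not given in the sources used here.

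Cxcl9 and Cxcl10, interferon-induced ligands of Cxcr3, were low. Cxcl10, whose window above holds an interferon response core, was at 0.602, 1.43 and 3.89 CPM in SCI + Vehicle and at 0 in uninjured cord, at least 11.6-fold higher (adjusted p = 0.00793). Cxcl9 was called with a bound of 5.52-fold (adjusted p = 0.0489), a call that was lost on leaving out any one of 6 of the 7 SCI + Vehicle mice or either control. Cxcl9 had no counts in SCI + Vehicle replicate 4 and so overlapped with the controls. Cxcl1, a neutrophil attractant, was at 0 to 1.3 CPM and was not called (adjusted p = 0.0568), but it was without SCI + Vehicle replicate 7 (adjusted p = 0.0162).

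Of the 7 receptors tested, 5 were called. Ccr2, the receptor of inflammatory monocytes, was at 0.408, 3.80 and 7.39 CPM in SCI + Vehicle and 0 in both controls, at least 24.7-fold higher (adjusted p = 0.0103). Cxcr6, found on T and natural killer cells, was at 1.19, 2.84 and 5.84 CPM, at least 19.8-fold higher (adjusted p = 0.00269). Ccr10 and Ccr9, known from skin and gut homing, and Ccr1, a receptor of Ccl3 and Ccl6 on myeloid cells, were called with bounds of 17.0-fold, 10.8-fold and 9.80-fold (adjusted p = 0.0234, 0.0141 and 0.0211). Ccr10 had no counts in SCI + Vehicle replicate 7 and so overlapped with the controls. Without SCI + Vehicle replicate 1 the bound of Ccr9 was 6.82-fold. The exons of Ccr9 share 269 bases with Gm17200 on the same strand and 1954 bases with Slc6a20a and AC165425.1 on the other, so its counts are uncertain.

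Cxcr4, the receptor of Cxcl12, was not called, and 1 control decided its value. It was at 5.51, 9.45 and 11.3 CPM in SCI + Vehicle against 0 and 14.95 CPM, a log2 fold change of 0.26 (SE 1.18, adjusted p = 0.902). Without Uninjured Control replicate 1 its log2 fold change was -0.73 (adjusted p = 0.154), and without replicate 2 it was called as upregulated (adjusted p = 2.8e-05).

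Cx3cl1 and Cxcl14, the ligands with the highest mean CPM in uninjured cord, were not called in SCI + Vehicle, nor was Ccl27a. Cx3cl1 was at 110.9, 128.4 and 156.4 CPM against 171.75 and 132.88 CPM, a log2 fold change of -0.25 (SE 0.14, adjusted p = 0.205), with overlap. The corresponding values were -0.13 (SE 0.17, adjusted p = 0.584) for Cxcl14 and -0.02 (SE 0.47, adjusted p = 0.989) for Ccl27a. Ccl11, the eosinophil ligand of Ccr3, was at 0, 0.791 and 2.52 CPM against 5.02 and 6.07 CPM. The groups did not overlap, and its log2 fold change of -2.66 (SE 1.3, adjusted p = 0.15) did not pass. Ccl25, Ccl28 (a mucosal ligand of Ccr10), Ccl9 (a macrophage ligand of Ccr1), Ccl17 (a ligand of Ccr4) and Ccl1 (a ligand of Ccr8) were not called either, with adjusted p values from 0.0929 for Ccl17 to 0.768 for Ccl9.

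**Figure D3:**
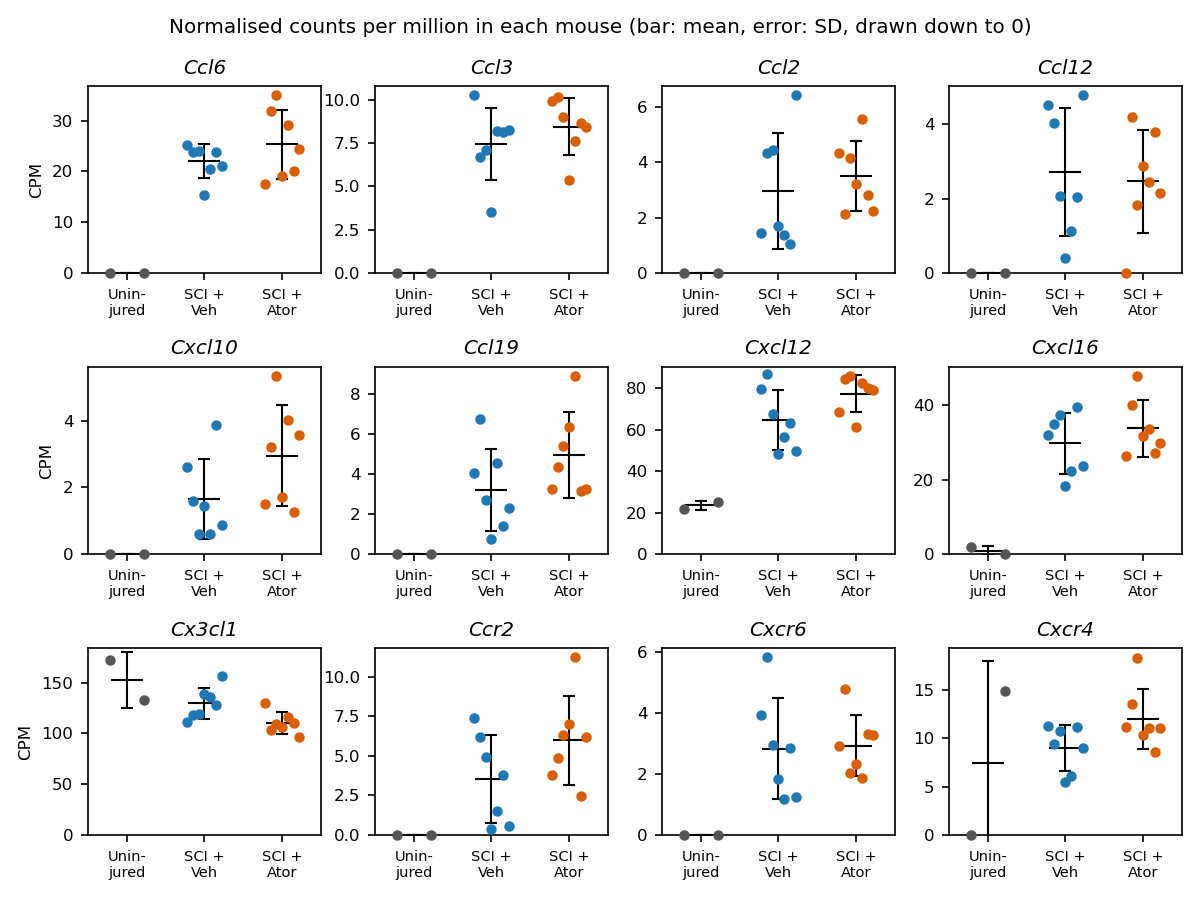
CPM of 12 genes in each mouse of the Uninjured Control (n = 2), SCI + Vehicle (n = 7) and SCI + Atorvastatin (n = 7) groups, with 1 point per mouse and a line at each group's mean. Ccl6 lies at 0 in both uninjured mice and between 15.45 and 35.05 CPM in all SCI mice, Cxcr4 lies at 0 and 14.95 CPM in the uninjured mice, and the treatments overlap in every panel.

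The second comparison set injured cord under atorvastatin against the same uninjured mice. In SCI + Atorvastatin vs. Uninjured Control, 19 of the 34 tested genes were called as upregulated and 1 as downregulated, against 24.9% and 14.0% of all genes tested. In CPM, all treated mice lay above both controls for 18 of the 34 and below both for 3. Of all genes tested, 29.76% lay wholly above and 14.23% wholly below. The 2 comparisons share their control mice, so they are not independent of each other. The 16 genes called under vehicle were all called here, and Cxcl1, Ccl7 and Ccl8 were called in addition. DESeq2 also called these 3 under vehicle (adjusted p = 0.0162 for Cxcl1, 0.0106 for Ccl7 and 0.0267 for Ccl8), as did 1 fit of all groups. Of the 19, 17 had no counts in either control, out of 23 such genes of the set, where 78.3% of all such genes were called as upregulated. Of these 23, the 4 without counts in any mouse again could not be called, and the others could be called only as upregulated. Among the 11 genes with counts in a control, 2 were called as upregulated and 1 as downregulated, against 15.4% and 16.5% of all such genes. By role the 19 upregulated genes were 9 CC ligands, 5 CXC ligands, 4 CC receptors and 1 CXC receptor. Among ligands with counts, 12 of 15 inducible and 2 of 8 constitutive ones were upregulated, and 1 constitutive one was downregulated. The inducible calls other than Cxcl16 were again of genes without counts in either control.

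Ccl6 was again highest among the called CC ligands, at 17.5, 24.3 and 35.05 CPM, at least 177-fold above the floor (edgeR adjusted p = 1.5e-05). Ccl3 was at 5.35, 8.65 and 10.2 CPM with a bound of 59.0-fold (adjusted p = 3.7e-05). Ccl19 was at 3.16, 4.39 and 8.93 CPM with a bound of 34.6-fold (adjusted p = 0.000231). All 7 mice of the group lay above both controls for these 3 ligands.

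Ccl2 and its receptor Ccr2 had counts in every atorvastatin-treated mouse, as in every SCI + Vehicle mouse. Ccl2 was at 2.13, 3.21 and 5.55 CPM, at least 24.4-fold higher (adjusted p = 0.000263), and Ccr2 was at 2.48, 6.17 and 11.3 CPM, at least 41.8-fold higher (adjusted p = 0.000278). Ccl12 was at 0 in 1 mouse, with a median of 2.45 CPM and a bound of 17.3-fold (adjusted p = 0.0185). Ccl7 and Ccl8, not called under vehicle, had bounds of 7.88-fold and 5.73-fold (adjusted p = 0.026 and 0.0188). Without SCI + Atorvastatin replicate 5 the bound of Ccl7 was 4.13-fold. The difference between the treatments themselves was not called for any of these genes.

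Cxcl10 was at 1.26, 3.21 and 5.35 CPM, at least 20.6-fold higher (adjusted p = 0.000861), and Cxcl9 had a median of 1.28 CPM and a bound of 11.8-fold (adjusted p = 0.0101). Cxcl1 had counts in all 7 mice, at 0.397 to 1.23 CPM, and a bound of 4.41-fold (adjusted p = 0.0043). The bounds of the other called genes were 20.5-fold for Ccl4 and for Cxcr6, 15.2-fold for Ccr10, 14.1-fold for Ccr9, 12.0-fold for Ccl5 and 9.32-fold for Ccr1 (adjusted p from 0.00029 for Cxcr6 to 0.0214 for Ccr1). Ccr1 had no counts in SCI + Atorvastatin replicate 3 and so overlapped with the controls.

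Cxcl12 was at 61.3, 79.96 and 86.0 CPM against 21.9 and 25.0 CPM, a log2 fold change of 1.74 (SE 0.16, adjusted p = 4.6e-05). Cxcl16 was at 26.4, 31.6 and 47.9 CPM against 1.86 and 0 CPM, a log2 fold change of 5.21 (SE 1.01, adjusted p = 0.00255). Both groups of values lay wholly above the controls. The 6 fibroblast markers, whose cells are a known source of Cxcl12, summed to 461.1 to 1158 TPM in SCI + Atorvastatin, 76.72 to 713.6 TPM in SCI + Vehicle and 132 and 143.3 TPM in Uninjured Control, and their part in the Cxcl12 values was not tested.

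Cx3cl1 was the gene called as downregulated. It was at 96.6, 108.8 and 130.0 CPM in SCI + Atorvastatin against 171.75 and 132.88 CPM, so all treated mice lay below both controls in CPM. In TPM they overlapped, at 73.9 to 111.8 TPM against 104.8 and 88.9 TPM. Its log2 fold change was -0.46 (SE 0.13, adjusted p = 0.017). Without Uninjured Control replicate 1, the higher of the pair, the log2 fold change was -0.26 (adjusted p = 0.132) and the call was lost. Limma on log2(TPM + 1) gave -0.15 (adjusted p = 0.445). The 5 neuron markers, from the known source of Cx3cl1, summed to 2016 to 2620 TPM in SCI + Atorvastatin, 2231 to 3231 TPM in SCI + Vehicle and 3408 and 3905 TPM in Uninjured Control. Of the 5, 4 were called as downregulated in both comparisons, beside 9.91% of all genes tested in SCI + Vehicle and 14.0% in SCI + Atorvastatin. The part of neurons in the Cx3cl1 values was not tested.

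Ccl11 (log2 fold change -3.07, SE 1.18, adjusted p = 0.0629) was again outside the limit with groups that did not overlap. It was called as downregulated without SCI + Atorvastatin replicate 2 (-3.59, adjusted p = 0.0442) or Uninjured Control replicate 1 (-3.20, adjusted p = 0.0334). Cxcl14, at 37.2, 49.4 and 57.1 CPM against 61.3 and 59.8 CPM, had a log2 fold change of -0.33 (SE 0.17, adjusted p = 0.156). For Cxcr4, at 8.60, 11.1 and 18.3 CPM, the value was 0.70 (SE 1.18, adjusted p = 0.682) and turned to -0.30 (adjusted p = 0.447) without Uninjured Control replicate 1. Without replicate 2 it was called as upregulated (adjusted p = 8.8e-07).

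The third comparison asked what atorvastatin changed in injured cord. In SCI + Atorvastatin vs. SCI + Vehicle none of the 34 genes was called by edgeR or by DESeq2 with the limits set for this comparison (an absolute log2 fold change above 0.32 at an unadjusted p below 0.001), where 0.0870% of all genes tested were called as upregulated and 0.0186% as downregulated. No gene of the whole table reached an adjusted p below 0.05, and the smallest adjusted p was 0.68. At an unadjusted p below 0.05, 1 chemokine was higher and 1 lower in edgeR, where 4.02% of all genes were higher and 3.01% lower. Of the 30 genes with counts, 16 had a positive and 14 a negative log2 fold change. The groups overlapped for each of them, as for nearly all genes tested. Only 0.056% of all genes lay wholly higher and 0.031% wholly lower under atorvastatin.

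Those 2 genes were Cx3cl1 and Cxcl12. Cx3cl1 was lower under atorvastatin (108.8 against 128.4 CPM in the median), with a log2 fold change of -0.23 (SE 0.08, 95% interval -0.41 to -0.06, unadjusted p = 0.0108, adjusted p = 0.68). Cxcl12 was higher (79.96 against 63.2 CPM), with a log2 fold change of 0.26 (SE 0.12, 95% interval 0.01 to 0.51, unadjusted p = 0.0456, adjusted p = 0.706). Neither passed the correction in any alternative tried. Beside Cxcl12, all 6 fibroblast markers had an unadjusted p below 0.05 in this comparison, with a median log2 fold change of 0.94. At that limit 4.02% of all genes tested were higher and 3.01% lower. The part of fibroblasts was not tested. Cxcr4, the receptor of Cxcl12, had a log2 fold change of 0.41 (95% interval -0.01 to 0.82, unadjusted p = 0.0548).

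For the inflammatory members the intervals were wide. Cxcl9 had a log2 fold change of 1.08 between the treatments (95% interval -0.45 to 2.61), Cxcl10 0.83 (-0.19 to 1.85) and Ccr2 0.75 (-0.28 to 1.78). The genes with more counts were bounded more closely, with Ccl6 at 0.20 (-0.13 to 0.53), Ccl3 at 0.18 (-0.27 to 0.63) and Cxcl16 at 0.18 (-0.17 to 0.54). For Ccl2 the value was 0.24 (-0.64 to 1.12). A p above the limit does not show that the treatments left these genes alike, and for Ccl2, Cxcl10 and Ccr2 a change of more than 1 on the log2 scale lies within the interval.

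**Figure D4:**
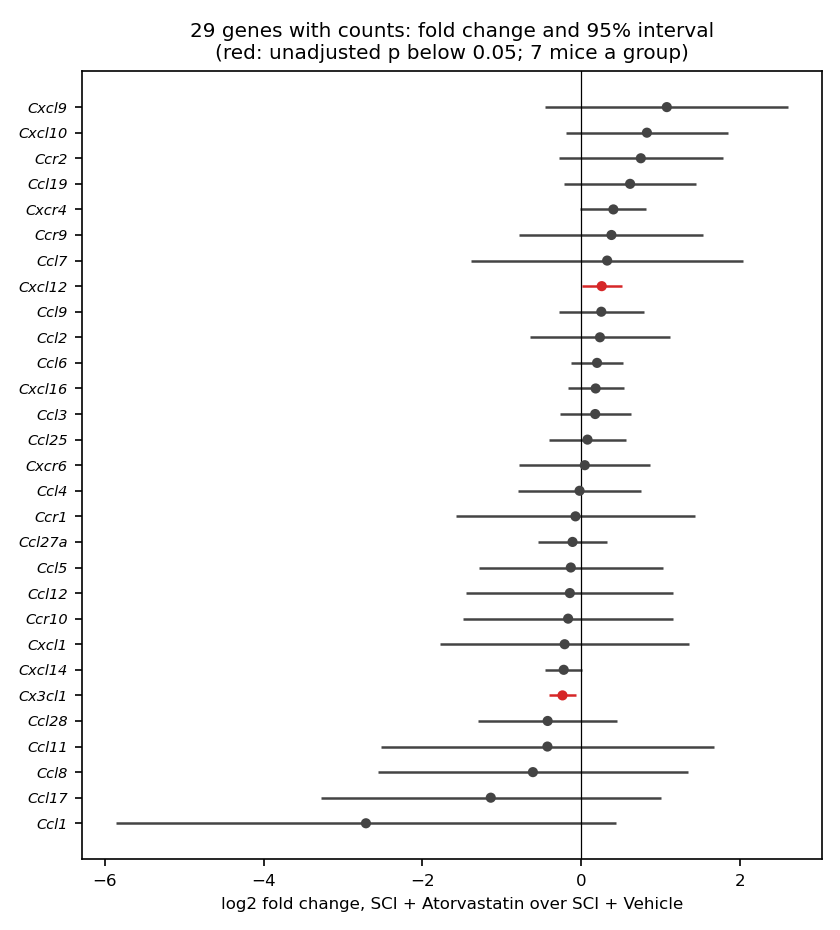
Log2 fold change of SCI + Atorvastatin vs. SCI + Vehicle with its 95% interval for 29 genes with counts, from edgeR with 7 mice in each group. The intervals of 27 genes cross 0, those of Cx3cl1 (-0.41 to -0.06) and Cxcl12 (0.01 to 0.51) do not, and no adjusted p is below 0.68.

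Mice of one group differed most for the genes with few counts. The coefficient of variation of CPM was lowest for Cx3cl1 (9.69% in SCI + Atorvastatin and 12.0% in SCI + Vehicle). It was also low for Cxcl14 (15.6% and 15.5%), Cxcl12 (11.7% and 22.6%) and Ccl6 (27.0% and 15.2%). It was highest for Ccl1 (171% and 174%), and Ccl7 (128% and 90.1%), Ccl8 (73.9% and 126%), Ccl17 (75.8% and 125%) and Ccr9 (41.3% and 103%) differed between the groups in their spread without a test. SCI + Vehicle replicate 4, the shallowest library, had the lowest CPM of the 14 SCI mice in 9 of the 30 genes, with 5 of the 30 at 0. SCI + Vehicle replicate 1 and SCI + Atorvastatin replicate 3 had the highest CPM in 7 genes each. Ccr2 showed this within 1 group, since SCI + Vehicle replicates 4, 5 and 7 had 6, 34 and 13 counts while the median of the group was 3.80 CPM.

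Ligands and receptors were compared across the 14 SCI mice as deviations from their group means of log2(CPM + 0.5), in 12 known pairs. After Benjamini-Hochberg adjustment over the pairs no relation passed. The strongest was that of Cxcl12 with Cxcr4, with Pearson's r = 0.573 (permutation p = 0.0506, adjusted p = 0.32) and Spearman's rho = 0.626 (permutation p = 0.0281, adjusted p = 0.162). Leaving out the 2 mice farthest from the median of Cxcl12 gave r = 0.505, and r was 0.444 among the atorvastatin-treated mice alone and 0.646 among the vehicle-treated ones. For Ccl2 with Ccr2, r was 0.0167 (permutation p = 0.962, adjusted p = 0.962) and rho 0.0505 (permutation p = 0.895, adjusted p = 0.895).

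The chemokine system also has members whose symbols fall outside the definition, and 10 such genes were tested. In SCI + Vehicle 3 were called as upregulated and 0 as downregulated, where 19.9% and 9.91% of all genes were, and in SCI + Atorvastatin 4 and 0, where 24.9% and 14.0% were. Cx3cr1, the microglial receptor of Cx3cl1, was at a mean of 96.3 TPM in SCI + Vehicle and 97.5 TPM in SCI + Atorvastatin against 15.5 TPM in uninjured cord. Its log2 fold change was 2.56 (SE 0.22, adjusted p = 5.6e-05) and 2.59 (SE 0.19, adjusted p = 1.6e-05). Cx3cr1 was thus called as upregulated in both comparisons. Its ligand Cx3cl1 was called as downregulated in SCI + Atorvastatin only, and that call was lost under limma on TPM, where the groups overlapped.

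Ackr4, a scavenger of Ccl19 and Ccl21, and Cklf, a chemokine-like factor, had no counts in the controls and were called in both comparisons (edgeR adjusted p = 0.0407 and 0.011 under vehicle). Ackr3, the scavenging receptor of Cxcl12, had a log2 fold change of 3.49 (adjusted p = 0.0398) in SCI + Atorvastatin and 3.02 (adjusted p = 0.0801) in SCI + Vehicle. Ackr1, Ackr2, Ccrl2, Pf4, Ppbp and Mif were not called in any comparison. Between the treatments none of the 10 had an unadjusted p below 0.05 in edgeR.

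Of 35 genes that signal below chemokine receptors, 34 were tested. In SCI + Vehicle 11 were called as upregulated and 2 as downregulated, and in SCI + Atorvastatin 14 and 4, beside the same 19.9% and 9.91%, and 24.9% and 14.0%, of all genes. The smallest p in both comparisons was that of Lyn, a Src family kinase of myeloid cells, with log2 fold changes of 2.92 (SE 0.22, adjusted p = 3.4e-05) and 3.12 (SE 0.24, adjusted p = 1.7e-05). It was followed by Fgr, a kinase of the same family, and Rgs1, a brake on Gi signalling, which had no counts in the controls (edgeR adjusted p = 0.000146 and 0.000217 under vehicle). The 34 genes had a median log2 fold change of 0.52 under vehicle and 0.70 under atorvastatin, against 0.17 and 0.21 for all genes tested. Between the treatments none was called, and 4 had an unadjusted p below 0.05 (Vav1, Gnai3, Ptk2b and Dock2), where 4.02% of all genes were higher and 3.01% lower at that limit, the smallest being that of Vav1 (log2 fold change 0.43, SE 0.12, unadjusted p = 0.00196, adjusted p = 0.68).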

How the data were processed

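RNA of a stranded total-RNA kit was sequenced from 16 mice. Per the submitters' processing notes, the authors used FastQC 0.12.1 and Trimmomatic 0.38 on the reads, STAR 2.5.4b for alignment to mm10, and RSEM 1.3.1 for quantification. They deposited whole-number counts, which carry no normalization and whose counting step is not given in the sources used here, and TPM, which the authors normalized for gene length and depth. Groups were taken from the labels. No columns of other series were found.

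Differential expression was tested on the deposited counts by the quasi-likelihood test of edgeR 4.0.16 (R 4.3.3) after TMM scaling, in a separate fit for each pair of groups. Benjamini-Hochberg adjustment ran over all 16091 genes whose mean TPM passed 1 in any group. Library sizes were totals over all genes. Against Uninjured Control a call needed an absolute log2 fold change above 0.32 and an adjusted p below 0.05, and between treatments an unadjusted p below 0.001. Folds of genes without counts in both controls are bounds against 3 counts per library, which cover counting error only. The p-values rest on the spread between mice, which edgeR moderates across genes. For genes without counts in both controls, the measured spread is that of the SCI mice.

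Alternatives used DESeq2 1.42.0, its size factors, limma 3.58.1 on log2(TPM + 1) or log2(TPM + 0.1), voom with group weights, 1 fit of all groups, other gene filters and limits, the replicate number as a block, and each mouse left out in turn. The methods were tested on simulated counts of genes averaging at least 10 counts, with the same spread for all genes and in both groups. Such counts do not cover calls against controls without counts. Each gene of the definition is accounted for, with values for those above mean TPM 1 in a group, except 1 gene that is in the counts and not reported by name here. Members, lists and tests were chosen with earlier results of these data known. Same-numbered mice of the SCI groups did not deviate together.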

Additional observations from a re-analysis of the deposited data

Results flagged for a closer look

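In 4 of the 58 sets of 7 CPM values tested, the highest mouse lay apart from the others by more than 0.57 of the set's whole range, Dixon's 95% limit for 7 values, which chance alone passes in about 1 of 20 sets. In SCI + Vehicle both such values came from replicate 1: Ccl17, a ligand of Ccr4, was at 1.89 CPM there and at 0.543 CPM in the next mouse, and Ccr9 at 5.00 CPM and 1.81 CPM. In SCI + Atorvastatin, Ccl7 was at 4.35 CPM in replicate 5 and 0.942 CPM in the next mouse, and Cxcl1 at 1.23 CPM in replicate 4 and 0.691 CPM in the next. SCI + Vehicle replicate 1 also had counts in more genes than any other library (19338). No cause was tested.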

How the results depend on the processing

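Against uninjured cord, the number of genes called depended on how the controls were modelled and on which genes were tested. The main fit called 16 in SCI + Vehicle and 20 in SCI + Atorvastatin. Testing only genes with a mean TPM above 1 in every group left 2 and 3 calls of 11, beside 2394 and 3693 of all 12559 genes. Requiring at least 10 counts in every mouse left 1 and 2 of 5, beside 2867 of 10854 and 4033 of 10903 genes. Genes without counts in the controls drop out under both filters. Voom with a quality weight for each group gave 0 and 0, with 131 and 146 calls among all genes. The replicate block gave 0 and 0, with 27 and 0 calls among all genes. Here same-numbered mice share only a number: over 7 pairs the correlation of their deviations ran from -0.194 to 0.112, and 0 mice correlated best with their own number. Leaving out 1 mouse gave 15 to 19 and 20 to 24 calls. DESeq2 gave 21 and 21, beside 6000 and 7207 calls among all 16091 genes. For 1 fit of all groups the numbers were 20 and 21, beside 6586 and 7126. Limma on log2(TPM + 1) gave 11 and 17, beside 4452 and 6316. No gene filter gave 17 and 25, beside 4835 of 20979 and 6822 of 20725 genes. Between the treatments 0 were called under each alternative tried except an unadjusted p below 0.05, which gave 2.

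In Uninjured Control, 7 genes were above mean TPM 1 without replicate 1 and 8 without replicate 2, in place of 11. The number was 31 to 34 in SCI + Atorvastatin and 29 to 31 in SCI + Vehicle on leaving out 1 mouse, and 39 and 36 above 0.5 TPM or 23 and 27 above 2 TPM. The direction of Cxcr4 turned without Uninjured Control replicate 1, to a log2 fold change of -0.73 in SCI + Vehicle and -0.30 in SCI + Atorvastatin. Cx3cl1 in SCI + Vehicle turned to 0.078 in limma on log2(TPM + 1) and 0.079 on log2(TPM + 0.1), from -0.25. The loss of the Cx3cl1 call in SCI + Atorvastatin under limma on TPM, voom and the block kept its direction. Of 880 values of single genes under alternatives, 764 kept direction and side of the limit, 100 kept the direction and lost the call, 12 gained one and 4 turned. The cause was not tested where none is named.

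Depth limits the low genes: with a floor of 0.117 to 0.202 CPM, counts of 0 in Ccl7, Ccl8 or Cxcl9 do not show absence, and with 2 controls the spread in uninjured cord is poorly known.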

Other observations

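Counts and TPM disagreed for part of these genes. Of the 912 values (57 genes in 16 mice), 56 (6.14%) had counts and a TPM of 0, in 25 genes, where the share over all genes was 5.28%. Another 30 (3.29%) had TPM and no counts, against 0.783% over all genes. In Uninjured Control replicate 2, Ccl27a had 397 counts, Ccl24, an eosinophil ligand of Ccr3, 211 counts and Ccl25 70 counts, each at a TPM of 0. Cxcl17, a mucosal ligand, had counts in all 14 SCI mice, up to 104, and was under the TPM limit in every group. Of the 23 genes under the limit, each had a count in at least 1 SCI mouse.

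Among lists of other cells, neutrophil markers summed to 122.8 to 849.3 TPM in SCI + Vehicle and 144.6 to 585.1 TPM in SCI + Atorvastatin. In Uninjured Control they summed to 115.4 and 197.5 TPM, with overlap of all 3 groups. Of 8 such markers tested, 3 were called as upregulated in SCI + Vehicle and 4 in SCI + Atorvastatin, and 0 as downregulated. Over all genes, 19.9% and 24.9% were called as upregulated. The neutrophil receptors Cxcr1 and Cxcr2 were at or below a mean of 0.516 TPM. Endothelial markers summed to 73.89 to 146 TPM in SCI + Vehicle, 111.3 to 168.2 TPM in SCI + Atorvastatin and 99.39 and 140.6 TPM in Uninjured Control. Skeletal muscle markers reached 2508 TPM in 1 SCI + Atorvastatin mouse.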
